A study of Mus musculus with 16 samples.

Results

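The proteasome is the protease that degrades ubiquitin-tagged proteins. Its barrel-shaped core, the 20S particle, is built from rings of alpha and beta subunits, and a 19S regulatory particle of ATPases and non-ATPases recognises, unfolds and feeds in the substrate. Proteolysis is carried out by the beta subunits Psmb5, Psmb6 and Psmb7. In cells exposed to interferon, and in many immune cells, newly built cores carry Psmb8, Psmb9 and Psmb10 in their place, which gives the immunoproteasome, known for cutting peptides that are presented by MHC class I. Interferon also raises the PA28 activator, a ring of the Psme1 and Psme2 proteins that caps the core. In bone, RANKL turns macrophage precursors into osteoclasts, and proteasome inhibitors are known to hinder this step.

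All protein-coding genes named Psma, Psmb, Psmc, Psmd, Psme, Psmf or Psmg with a number were taken from the count tables of both experiments. There were 49 of them among the 10764 genes that the authors kept in the SREBP2 experiment and 48 among the 10788 kept in the IRF7 experiment. All 49 stood in both full tables of 21497 and 22001 genes, and Psma8 alone fell under the authors' minimum in the IRF7 experiment. By role they were 7 alpha subunits, 4 structural beta subunits, 3 constitutive and 3 immune catalytic beta subunits, the testis alpha subunit Psma8, 6 ATPases and 11 non-ATPases of the 19S particle, 4 activators, the inhibitor Psmf1 and 7 assembly chaperones. Psmc3ip, a meiotic recombination protein, and Psme2b, a near copy of Psme2, were matched by their names alone.

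Bone marrow-derived macrophages (BMMs) of female mice were the source of every library, and the age of the mice is not in the labels. In the SREBP2 experiment, SREBP2floxflox LysM cre mice (SREBP2ΔM), which delete the cholesterol regulator Srebf2 under a Cre driven by the Lysozyme M promoter of myeloid cells, were set against LysM cre mice with intact Srebf2, so that both genotypes carry the Cre. In the IRF7 experiment, IRF7 deficient mice (IRF7-/-), which lack this interferon regulatory factor in all cells, were set against C57BL6 mice (WT). BMMs of each genotype received M-CSF with RANKL for 3 days, which gives osteoclasts, at 40 ng/ml by the labels, where the study's own text gives a higher dose for mouse BMMs, or M-CSF from L929 cell supernatant alone. Each of the 8 groups had 2 libraries, 16 in all, which the study calls biological replicates without saying whether they were separate mice or cultures. The p-values therefore measure the spread between these libraries alone. With 2 libraries against 2, a two-sided exact permutation test gives at best p = 0.333. Unless another test is named, calls come from edgeR's quasi-likelihood test at an adjusted p under 0.05 over all kept genes.

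Library totals ran from 7703178 to 13387849 counts, and the Psm genes took 0.437% to 0.663% of them. Levels are given as CPM after TMM scaling. Srebf2 stood at 0.132 to 0.966 CPM in the 4 SREBP2ΔM libraries and at 233 to 282 CPM in the 4 LysM-Cre libraries. Irf7 stood at 0.326 to 2.12 CPM in the 4 IRF7-/- libraries and at 43.4 to 81.0 CPM in the 4 WT libraries, so both checks followed the labels. A list of 9 osteoclast markers summed to 31616 to 76609 CPM with RANKL and to 30.9 to 96.3 CPM with M-CSF alone. The 6 macrophage markers were detected in every library. Their sums were 3580 to 4144 CPM with RANKL and 5554 to 6398 CPM with M-CSF alone in the IRF7 experiment, and overlapped in the SREBP2 experiment. The sums hid opposite movements. In both experiments Adgre1, Fcgr1, Itgam and Mertk were lower in every RANKL library than in every M-CSF library, and Cd68 was higher. In the SREBP2 experiment Fcgr1 had 13.0 to 28.6 CPM with RANKL, against 226 to 275 CPM. Cd68 had 2142 to 2599 CPM there, against 1050 to 1252 CPM, and Csf1r overlapped. Markers of other blood cells did not all move alike. The 5 T cell markers summed to 1.15 to 4.41 CPM with RANKL and to 0.098 to 1.85 CPM with M-CSF alone. Cd3e, Cd3d and Cd3g were at 0 in every RANKL library. The sums of the 4 dendritic cell markers overlapped between the treatments. The 8 neutrophil markers summed to 3.59 to 14.9 CPM with RANKL and to 59.2 to 951 CPM with M-CSF alone. Ly6g was at 0 in 3 of the 4 RANKL groups and in the SREBP2ΔM M-CSF group, and was at most 0.434 CPM elsewhere. The 5 B cell markers summed to 0.347 to 0.940 CPM with RANKL and to 4.11 to 30.2 CPM with M-CSF alone. With M-CSF alone no B cell marker was at 0 in both libraries of a group, though Ms4a1 and Pax5 were at 0 in SREBP2ΔM replicate 1. The 4 stromal markers summed to 9.77 CPM in IRF7-/- M-CSF replicate 2, nearly all Col1a1 and Col1a2, and to at most 2.51 CPM in any other library. That library also had the highest neutrophil and B cell sums. The NK cell and erythroid sums were at most 0.543 and 0.652 CPM. The part of these cells in the differences below was not tested. In bulk RNA, fewer cells of a type and less RNA per cell cannot be told apart.

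Compared per length of merged exons, 4 core subunits were the most abundant members. Their levels are medians over the 16 libraries, in CPM per kb. The alpha subunit Psma6 was highest with 152.9 CPM per kb, followed by the structural subunit Psmb2 with 112 CPM per kb and the constitutive protease Psmb5 with 107.6 CPM per kb. Psmb6, another constitutive protease, had 104 CPM per kb and Psmd2, a scaffold protein of the 19S base, had 99.9 CPM per kb. Psmb7, the constitutive protease with trypsin-like activity, was lower at 45.3 CPM per kb.

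By their medians per kb of merged exon, the immune catalytic subunits stood below their constitutive counterparts. For Psmb8 and Psmb5 this order rests on merged exon lengths of 3381 and 899 bases. By CPM with M-CSF alone, group means were 131 to 144 CPM for Psmb8 and 92.2 to 102 CPM for Psmb5. With RANKL the Psmb8 mean was above that of Psmb5 in LysM-Cre cells only. Psmb9 and Psmb10 stood below Psmb6 and Psmb7 by CPM as well. Psmb8, which takes the place of Psmb5, had a median of 35.0 CPM per kb and ranged from 16.1 to 46.1 CPM per kb. Psmb10, which takes the place of Psmb7, had 33.3 CPM per kb with a range of 21.2 to 38.4 CPM per kb, which overlapped the range of Psmb8. Psmb9, which takes the place of Psmb6, was well below both, at 7.43 CPM per kb with a range of 5.33 to 11.2 CPM per kb. Among the activators Psme2 was highest at 77.9 CPM per kb and Psme4, which forms the PA200 cap, lowest at 16.02 CPM per kb. The lowest members of all were Psma8 at 1.15 CPM per kb, the chaperone Psmg3 at 2.42 CPM per kb, Psme2b at 3.35 CPM per kb and Psmc3ip at 3.74 CPM per kb. Reads of Psme2b and Psme2 may be split between the copies, and their counts are uncertain to that extent.

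In the SREBP2 experiment RANKL was accompanied by lower levels of many Psm genes. In SREBP2ΔM cells 1 member rose and 22 of 49 fell with RANKL, where 28.6% of all tested genes rose and 27.6% fell. In LysM-Cre cells 1 rose and 25 of 49 fell, against 29.0% and 28.6% of all genes. In IRF7-/- cells 3 rose and 8 of 48 fell, against 25.8% and 23.5% of all genes, and in WT cells 3 rose and 7 of 48 fell, against 24.9% and 22.5%. In the IRF7 experiment the members that fell were thus a smaller share than among all genes. The median log2 fold change of the members was -0.36 in SREBP2ΔM, -0.40 in LysM-Cre, -0.17 in IRF7-/- and -0.20 in WT cells, where the median of all tested genes lay between 0.00 and 0.01 in each. Both RANKL libraries lay below both M-CSF libraries for 31, 34, 22 and 24 members in the same order of genotypes, where this held for 39.0%, 40.1%, 38.0% and 37.4% of all genes. They lay above them for 7, 5, 8 and 5 members, against 39.7%, 40.7%, 38.1% and 37.9% of all genes. Under the thresholds of the study, an unadjusted p under 0.05 with a fold over 1.5, fewer members passed, at 11 of 49 in SREBP2ΔM, 13 of 49 in LysM-Cre, 5 of 48 in IRF7-/- and 4 of 48 in WT cells, against 46.7%, 47.0%, 41.6% and 40.4% of all genes. The difference between the 2 experiments was not tested.

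The counts in the SREBP2ΔM, IRF7-/- and WT cells fell when some single libraries were left out. Such a fit keeps 1 library in a group and has fewer residual degrees of freedom. A call lost in it, here or below, need not mean that the effect rests on that library. Of the 23 called in SREBP2ΔM cells, 14 were called without M-CSF replicate 1 and 13 without RANKL replicate 1. Of the 11 in IRF7-/- cells, 4 were called without M-CSF replicate 1 and 6 without M-CSF replicate 2. Of the 10 in WT cells, 6 were called without M-CSF replicate 1 and also without M-CSF replicate 2.

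Across genotypes 1 member, Psmd10, rose in all 4, and 6 fell in all 4, namely Psmb8, Psme1, the ATPases Psmc1, Psmc2 and Psmc5, and the chaperone Psmg4. Of the 10598 genes tested in both experiments, 20.2% rose and 16.3% fell in all 4 genotypes. No member rose in one genotype and fell in another. A further 20 members passed in no genotype, among them Psmb5, Psmb6, Psmb9, Psme2, Psme4 and Psmf1.

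**Figure D1:**
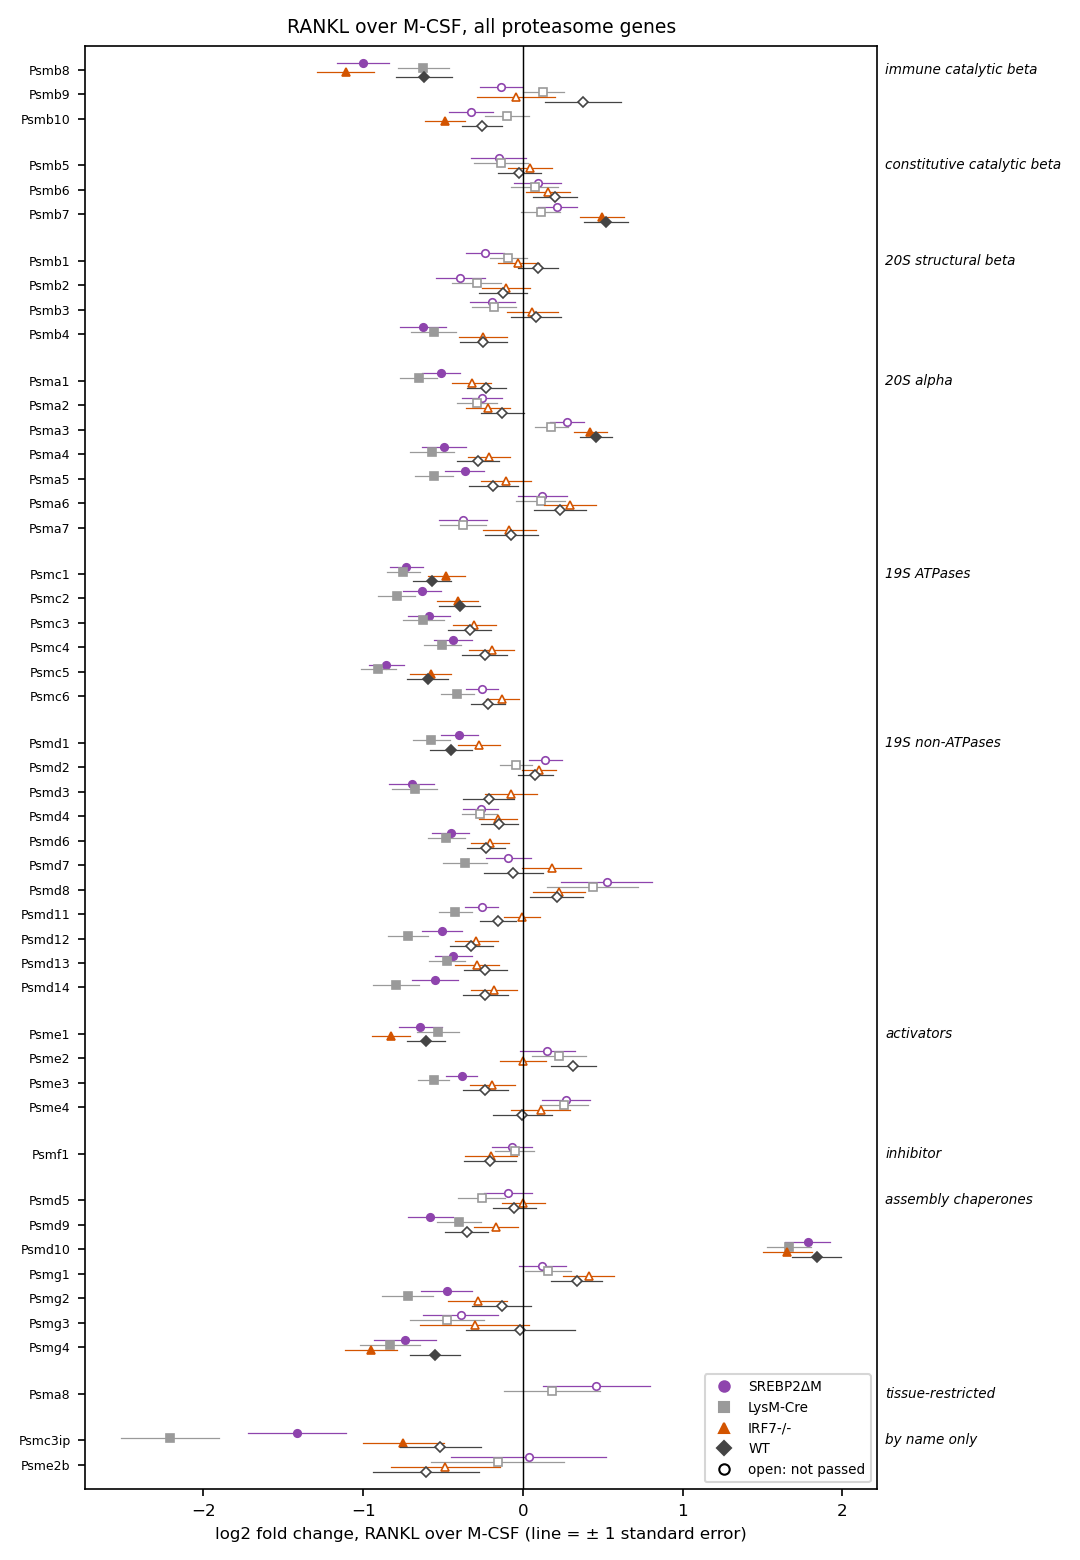
Log2 fold change with RANKL over M-CSF alone for the 49 Psm genes (rows, grouped by role), with 1 symbol per genotype, lines of 1 standard error and filled symbols for an edgeR adjusted p under 0.05. Psmd10 stands alone at 1.65 to 1.84, and the 6 ATPases lie below 0 in all 4 genotypes.

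The immune catalytic subunits did not move together. Psmb8 (mm10, chromosome 17, 34197721 to 34201454, plus strand) fell in all 4 genotypes. Psmb10 passed in IRF7-/- cells, where it fell, and in no other genotype, and Psmb9 passed in none. No interaction of genotype with RANKL passed for Psmb10 in either experiment. The RefSeq promoter of Psmb8, 250 bases before to 50 after a start site that lies inside the deposited gene, is printed here because Psmb8 is the immune subunit that moved most, and that of its constitutive counterpart Psmb5, which passed in no genotype, is set below it. Capitals mark the letters TTCNNNGAA, the core of the gamma interferon activation site (GAS), in Psmb8, and TGACNNNGC, the core of the antioxidant response element bound by Nfe2l1 and Nfe2l2, in Psmb5.
Psmb8, chr17:34197945-34198244, plus strand, GRCm38.p6: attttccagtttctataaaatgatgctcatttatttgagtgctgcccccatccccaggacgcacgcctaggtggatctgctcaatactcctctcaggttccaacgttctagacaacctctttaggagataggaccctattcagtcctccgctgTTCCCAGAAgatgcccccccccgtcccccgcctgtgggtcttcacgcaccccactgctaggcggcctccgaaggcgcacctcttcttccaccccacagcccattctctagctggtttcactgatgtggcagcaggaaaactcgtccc
Psmb5, chr14:54617946-54618245, minus strand, GRCm38.p6: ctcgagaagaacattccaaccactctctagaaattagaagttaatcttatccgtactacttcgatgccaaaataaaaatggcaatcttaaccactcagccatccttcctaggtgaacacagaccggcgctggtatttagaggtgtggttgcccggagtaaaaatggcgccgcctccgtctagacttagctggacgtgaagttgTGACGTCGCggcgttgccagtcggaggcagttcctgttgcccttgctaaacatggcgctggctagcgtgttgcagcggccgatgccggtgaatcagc
The GAS letters start 97 bases before the Psmb8 start site and the antioxidant letters 47 bases before that of Psmb5. Both strands were searched. GAS letters stood in 3 of the 41 members with a promoter entry, Psmb8, Psmd2 and Psmg1, and in 8.3% of all 32851 promoters, or 9.55% of the 27025 genes with an entry. Antioxidant core letters stood in 6 members, Psmb5, Psmb6, Psmc6, Psmd9, Psmd12 and Psme4, and in 12.4% of all promoters, or 14.0% of genes. A match of letters is a description of the sequence only. In the text that follows, the letters of a motif are not taken as bound.

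Psmb8 had 58.8 and 75.6 CPM with RANKL, against 136 and 133 CPM with M-CSF alone, in SREBP2ΔM cells. In LysM-Cre cells it had 73.6 and 96.6 CPM with RANKL, against 133 and 129 CPM. The treatments did not overlap in either genotype, and the log2 fold change was -1.001 ± 0.16 (SE) in SREBP2ΔM cells (n = 2 and 2, edgeR adjusted p = 0.000837) and -0.62 ± 0.16 in LysM-Cre cells (edgeR adjusted p = 0.00894). The level of Psmb8 in IRF7-/- cells was 54.6 and 69.0 CPM with RANKL, against 133 and 134 CPM. WT cells had 80.0 and 107 CPM with RANKL, against 132 and 156 CPM. Here too every RANKL library was below every M-CSF library, with a log2 fold change of -1.11 ± 0.18 in IRF7-/- cells (edgeR adjusted p = 0.00147) and -0.62 ± 0.18 in WT cells (edgeR adjusted p = 0.0211). The call was lost in LysM-Cre cells without RANKL replicate 1 (edgeR adjusted p = 0.0759), and in WT cells without RANKL replicate 1 (edgeR adjusted p = 0.113) or M-CSF replicate 2 (edgeR adjusted p = 0.118). An exon of Psmb8 overlaps one of Gm20496 on the other strand, and the strand setting of the counting is not given in the sources used here.

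Psmb10 (chromosome 8, 105935735 to 105938444, minus strand) had 36.1 and 43.6 CPM with RANKL in IRF7-/- cells, against 55.1 and 56.8 CPM with M-CSF alone (log2 fold change -0.49 ± 0.13, edgeR adjusted p = 0.0140). The RANKL libraries were both lower. That call was lost without M-CSF replicate 1 (edgeR adjusted p = 0.0601), M-CSF replicate 2 (0.0757) or RANKL replicate 1 (0.0747). Levels in SREBP2ΔM cells were 46.6 and 53.7 CPM with RANKL, against 64.8 and 60.9 CPM, which did not pass (log2 fold change -0.33, edgeR adjusted p = 0.0746). Those in WT cells were 50.5 and 56.9 CPM with RANKL, against 63.3 and 65.4 CPM (log2 fold change -0.26), and those in LysM-Cre cells were 49.8 and 61.6 CPM, against 57.8 and 61.5 CPM (-0.10). Neither passed, and in LysM-Cre cells the treatments overlapped.

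Psmb9 (chromosome 17, 34181988 to 34187764, minus strand) showed no such pattern. It had 24.98 and 27.5 CPM with RANKL, against 30.3 and 27.4 CPM, in SREBP2ΔM cells, and 31.6 and 34.4 CPM, against 30.6 and 29.9 CPM, in LysM-Cre cells. The levels in IRF7-/- cells were 19.5 and 26.4 CPM with RANKL, against 24.6 and 22.7 CPM. WT cells had 25.1 and 41.1 CPM with RANKL, against 24.5 and 27.0 CPM, so that 1 WT library stood apart. This replicate 2 also had the lowest osteoclast marker sum of the RANKL libraries, 31616 CPM against 56174 CPM in replicate 1, and the part of that in the Psmb9 level was not tested. In each of the 4 genotypes the RANKL library with the lower osteoclast marker sum was replicate 2. The markers did not all follow their sum. Ctsk, Acp5, Dcstamp and Oscar were lower in replicate 2 in all 4 genotypes, while Calcr and Itgb3 were higher. Ocstamp, Atp6v0d2 and Mmp9 differed in direction between genotypes. Members of other roles, among them Psma1, Psma6 and Psmd10, were higher in replicate 2 than in replicate 1 in all 4 genotypes, and Psmd8 was lower. That library had the higher Psmb8, Psmb9 and Psmb10 as well. Without WT RANKL replicate 1 the gene passed as higher (log2 fold change 0.67, edgeR adjusted p = 0.0333). Psmb9 shares exon bases with Tap1, which lies on the other strand.

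The constitutive subunits passed rarely and upward. Psmb7 (chromosome 2, 38588036 to 38644087, minus strand) had 184 and 219 CPM with RANKL, against 143 and 144 CPM, in IRF7-/- cells, and 198 and 214 CPM, against 130 and 157 CPM, in WT cells. RANKL libraries were higher in both, with log2 fold changes of 0.49 ± 0.14 (edgeR adjusted p = 0.0192) and 0.52 ± 0.14 (edgeR adjusted p = 0.0154). Both calls were lost when some single libraries were left out, though the log2 fold changes stayed above 0. In IRF7-/- cells they were 0.49, 0.50 and 0.36 without M-CSF replicate 1, M-CSF replicate 2 and RANKL replicate 2, in that order. In WT cells they were 0.46 without RANKL replicate 2 and 0.40 without M-CSF replicate 1. In the SREBP2 experiment Psmb7 did not pass, at 158 and 172 CPM with RANKL, against 153 and 131 CPM, in SREBP2ΔM cells and 146 and 157 CPM, against 132 and 149 CPM, in LysM-Cre cells. Some of its exon bases are shared with Nek6 on the other strand.

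Psmb5 (chromosome 14, 54614119 to 54618022, minus strand) overlapped between treatments in all 4 genotypes. Its 8 RANKL libraries ran from 82.0 to 108 CPM and its 8 M-CSF libraries from 77.1 to 108 CPM. Psmb6 (chromosome 11, 70525367 to 70527858, plus strand) ran from 185 to 241 CPM with RANKL and from 166 to 222 CPM with M-CSF alone. Only in IRF7-/- cells did its treatments not overlap, at 194 and 201 CPM with RANKL, against 172 and 183 CPM, and it passed in no genotype.

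**Figure D2:**
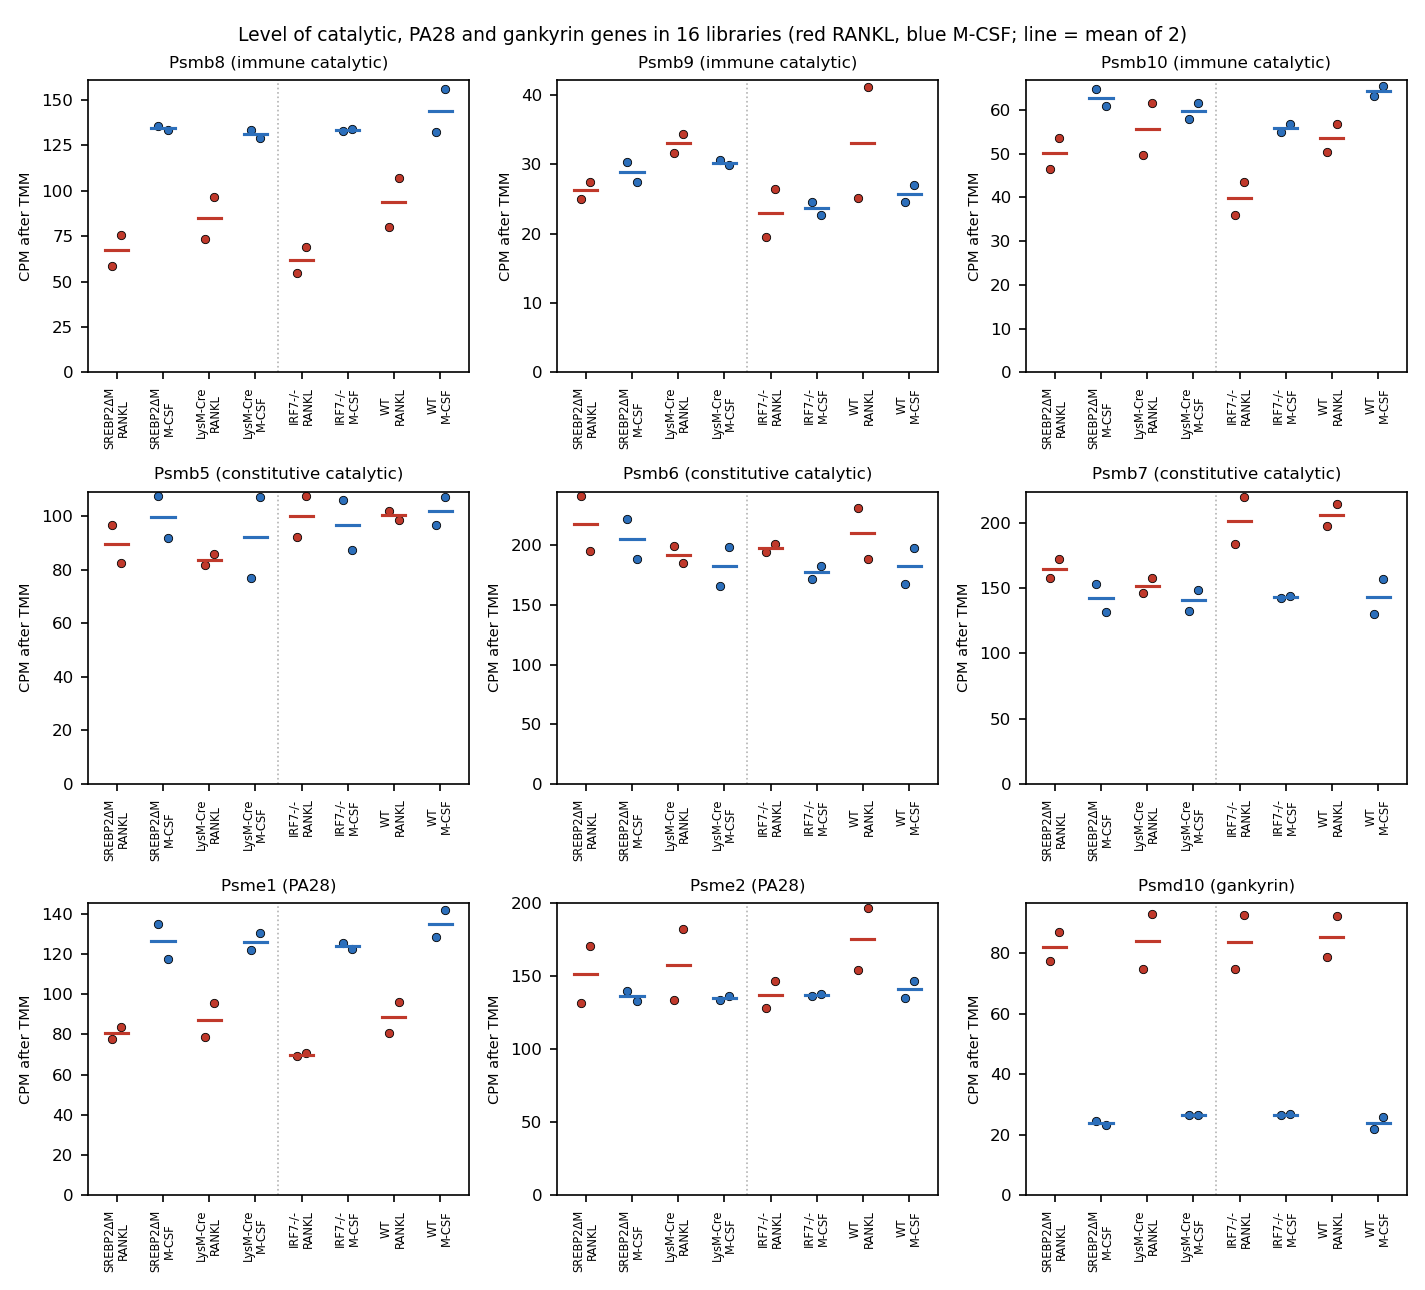
CPM after TMM of the immune (Psmb8, Psmb9, Psmb10) and constitutive (Psmb5, Psmb6, Psmb7) catalytic subunits, Psme1, Psme2 and Psmd10, with 1 point per library, RANKL in red and M-CSF alone in blue, for each genotype, and a line at the mean of 2 libraries. The red points lie below the blue for Psmb8 and Psme1 and above them for Psmd10 in each genotype, with Psmd10 at 74.6 to 92.9 CPM against 21.9 to 26.7 CPM.

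The balance of each immune subunit to the constitutive subunit it replaces was followed within each library, as the log2 ratio of their read counts with 0.5 added to each. This ratio needs no scaling between libraries. For Psmb8 over Psmb5 it averaged -0.31 ± 0.37 with RANKL and 0.48 ± 0.17 with M-CSF alone (SD, n = 8 each), with RANKL libraries at -0.75 to 0.17 and M-CSF libraries at 0.27 to 0.79. The 2 treatments did not overlap. The difference of -0.79, a 1.73-fold lower ratio, gave p = 0.00154 in an exact two-sided permutation within genotypes, the smallest that its 1296 relabellings can give, and 0.00231 after adjustment over the 3 pairs. It was below 0 in all 4 genotypes, at -0.86 in SREBP2ΔM, -0.52 in LysM-Cre, -1.17 in IRF7-/- and -0.61 in WT cells.

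Psmb10 over Psmb7 averaged -1.86 ± 0.35 with RANKL and -1.23 ± 0.11 with M-CSF alone (SD, n = 8 each). With RANKL libraries at -2.35 to -1.35 and M-CSF libraries at -1.37 to -1.04, this ratio overlapped slightly between treatments, though within no genotype. Its difference of -0.63 gave the same p = 0.00154 in the exact permutation (adjusted 0.00231), with -0.55, -0.22, -0.98 and -0.79 in SREBP2ΔM, LysM-Cre, IRF7-/- and WT cells. In the IRF7 experiment its denominator Psmb7 rose with RANKL as well. Psmb9 over Psmb6 differed by -0.07 (-2.85 ± 0.41 with RANKL and -2.78 ± 0.16 with M-CSF alone, exact permutation p = 0.656), with more spread among RANKL libraries. Within a single experiment the exact permutation of 36 relabellings cannot go below 0.0556, and both lower ratios reached that value in each experiment.

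Expressed per length, Psmb8 made up 13.6% to 23.0% of the summed Psmb8 and Psmb5 level in the 8 RANKL libraries and 24.3% to 31.5% in the 8 M-CSF libraries. The size of this share rests on the merged exon lengths, 3381 bases for Psmb8 and 899 for Psmb5. Psmb10 made up 28.3% to 44.0% of Psmb10 and Psmb7 with RANKL and 43.7% to 49.4% with M-CSF alone. Psmb9 made up 4.89% to 10.0% of Psmb9 and Psmb6 with RANKL, against 5.96% to 8.61%. The first of these ranges was separate between treatments, the Psmb10 ranges overlapped slightly, and that of Psmb9 with RANKL enclosed the other.

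**Figure D3:**
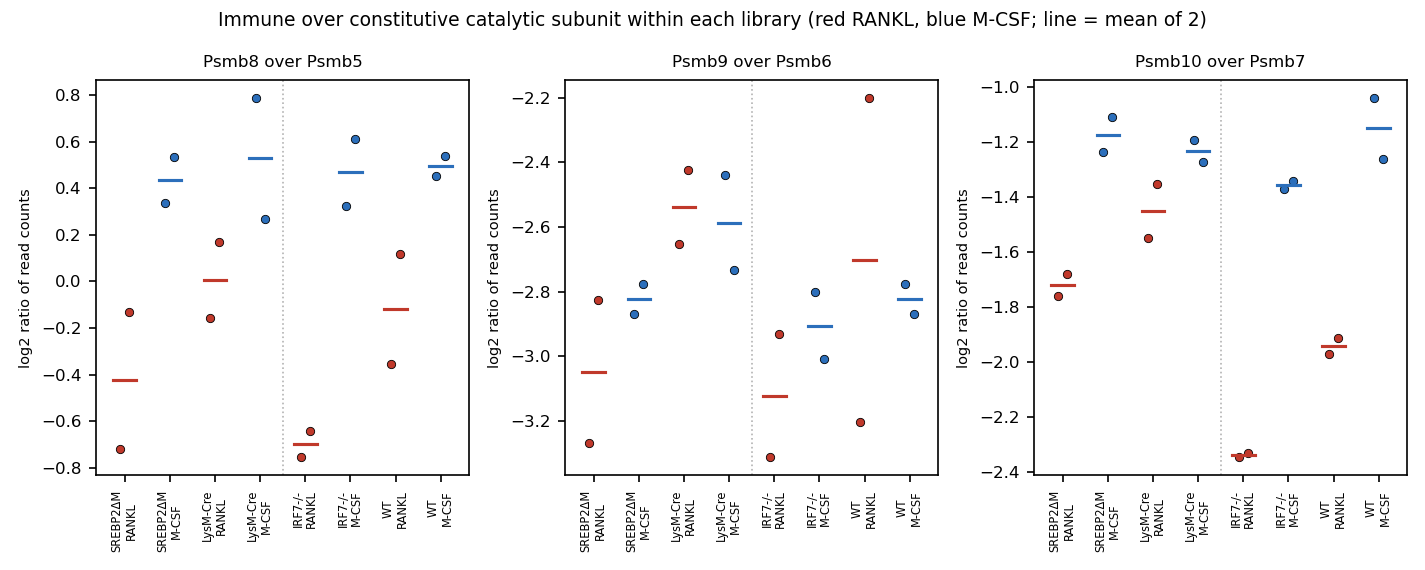
Log2 ratio of read counts of each immune over its constitutive subunit (3 panels), with 1 point per library, RANKL in red and M-CSF alone in blue, by genotype, and a line at the mean of 2 libraries. For Psmb8 over Psmb5 the RANKL points lie at -0.75 to 0.17 and the M-CSF points at 0.27 to 0.79, while Psmb9 over Psmb6 shows no such gap.

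The subunits of the PA28 ring parted with RANKL. Psme1 (chromosome 14, 55578123 to 55581529, plus strand) fell in all 4 genotypes, and Psme2 (chromosome 14, 55587441 to 55591113, minus strand), its neighbour on the chromosome, passed in none. Their promoters are printed because these neighbours moved unlike each other. Capitals mark TTTCGCTTTC in Psme1, which is the core of the interferon-stimulated response element (ISRE: GAAA, any 2 bases and GAAA again) read on the other strand. It lies just past the start site. Neither of the promoter windows RefSeq gives for Psme2, of which the more upstream is shown, held ISRE, GAS or antioxidant letters.
Psme1, chr14:55578244-55578543, plus strand, GRCm38.p6: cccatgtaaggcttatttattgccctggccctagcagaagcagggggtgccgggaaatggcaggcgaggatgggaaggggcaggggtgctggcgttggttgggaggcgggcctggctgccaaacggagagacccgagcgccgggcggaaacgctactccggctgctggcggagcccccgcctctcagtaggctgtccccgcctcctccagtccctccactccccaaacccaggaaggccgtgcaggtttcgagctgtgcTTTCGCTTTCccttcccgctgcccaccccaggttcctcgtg
Psme2, chr14:55591052-55591351, minus strand, GRCm38.p6: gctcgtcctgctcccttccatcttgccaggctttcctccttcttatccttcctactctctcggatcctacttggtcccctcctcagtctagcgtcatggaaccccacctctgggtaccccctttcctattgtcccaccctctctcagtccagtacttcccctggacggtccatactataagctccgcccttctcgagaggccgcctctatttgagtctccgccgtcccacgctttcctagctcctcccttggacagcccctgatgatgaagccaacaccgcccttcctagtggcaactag
ISRE letters stood in 5 of the 41 members with an entry, Psmb3, Psmd4, Psmd9, Psme1 and Psmg4, and in 3.44% of all promoters, or 3.99% of genes.

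Psme1 had 77.7 and 83.6 CPM with RANKL in SREBP2ΔM cells, against 135 and 117 CPM with M-CSF alone. In LysM-Cre cells it had 78.5 and 95.6 CPM, against 122 and 130 CPM. RANKL libraries were lower in both, with log2 fold changes of -0.64 ± 0.13 (edgeR adjusted p = 0.00330) and -0.53 ± 0.13 (edgeR adjusted p = 0.00775). The levels of Psme1 in IRF7-/- cells were 69.1 and 70.7 CPM with RANKL, against 126 and 122 CPM. In WT cells they were 80.7 and 96.2 CPM, against 128 and 142 CPM. Again no RANKL library reached an M-CSF library, and the log2 fold changes were -0.83 ± 0.12 (edgeR adjusted p = 0.000867) and -0.61 ± 0.12 (edgeR adjusted p = 0.00402). Without LysM-Cre RANKL replicate 1 the call in LysM-Cre cells was lost (edgeR adjusted p = 0.0683).

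Psme2 had 132 and 171 CPM with RANKL, against 140 and 133 CPM, in SREBP2ΔM cells, 134 and 182 CPM, against 134 and 137 CPM, in LysM-Cre cells, and 128 and 147 CPM, against 136 and 138 CPM, in IRF7-/- cells. All of these overlapped. In WT cells it had 155 and 197 CPM with RANKL, against 135 and 147 CPM, with the RANKL libraries higher (log2 fold change 0.32 ± 0.14, edgeR adjusted p = 0.104), and it passed without RANKL replicate 1 (0.48, edgeR adjusted p = 0.0365). Of the other activators, Psme3, the PA28 gamma cap of nuclear proteasomes, fell in SREBP2ΔM cells, with 119 CPM in both RANKL libraries against 152 and 158 CPM. It fell in LysM-Cre cells as well, with 106 CPM in both against 152 and 160 CPM, and did not pass in the IRF7 experiment, at 135 and 162 CPM, against 181 and 158 CPM, in IRF7-/- cells and 125 and 145 CPM, against 160 and 159 CPM, in WT cells. Psme4 and the inhibitor Psmf1 passed in no genotype.

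The ATPases of the 19S base, which unfold the substrate, were the role with the largest share of falling members in the SREBP2 experiment. The number that fell was 5 of 6 in SREBP2ΔM, 6 of 6 in LysM-Cre, 3 of 6 in IRF7-/- and 3 of 6 in WT cells, with median log2 fold changes of -0.61, -0.69, -0.36 and -0.37. The IRF7-/- count was 0 without M-CSF replicate 1, 2 without M-CSF replicate 2 and 1 without RANKL replicate 1. Summed over the 6 genes, the ATPase level was 259 and 278 CPM per kb with RANKL, against 435 and 400 CPM per kb, in SREBP2ΔM cells and 242 and 257 CPM per kb, against 385 and 422 CPM per kb, in LysM-Cre cells. The sums were 278 and 333 CPM per kb with RANKL, against 411 and 391 CPM per kb, in IRF7-/- cells and 291 and 313 CPM per kb, against 402 and 415 CPM per kb, in WT cells. The treatments were apart in each genotype.

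Psmc5 was the ATPase with the largest change in every genotype. It had 74.7 and 80.7 CPM with RANKL, against 143 and 139 CPM, in SREBP2ΔM cells, and 71.3 and 73.9 CPM, against 129 and 144 CPM, in LysM-Cre cells. The log2 fold changes were -0.86 ± 0.11 (edgeR adjusted p = 0.000227) and -0.91 ± 0.11 (edgeR adjusted p = 0.000146). Psmc5 in IRF7-/- cells had 88.7 and 109 CPM with RANKL, against 154 and 140 CPM, and in WT cells 97.0 and 98.0 CPM, against 153 and 142 CPM. These gave -0.58 ± 0.13 (edgeR adjusted p = 0.00676) and -0.60 ± 0.13 (edgeR adjusted p = 0.00604), the IRF7-/- call being lost without M-CSF replicate 1 (edgeR adjusted p = 0.0563). Psmc1 had the highest median of the ATPases per kb of merged exon, 90.2 CPM per kb. It fell with log2 fold changes of -0.73, -0.75, -0.48 and -0.57 in SREBP2ΔM, LysM-Cre, IRF7-/- and WT cells. The IRF7-/- call of Psmc1 was lost without M-CSF replicate 1 (edgeR adjusted p = 0.0682) or RANKL replicate 1 (0.0627). Psmc2 fell with -0.63, -0.79, -0.41 and -0.40, where the last 2 were lost without 3 of the 4 libraries in turn: M-CSF replicate 1, M-CSF replicate 2 and RANKL replicate 1 in IRF7-/- (edgeR adjusted p = 0.113 to 0.159) and the same in WT cells (edgeR adjusted p = 0.0648 to 0.188). The WT call of Psmc2 was also lost in a fit of the 2 WT groups (edgeR adjusted p = 0.0631).

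The non-ATPases, scaffold and ubiquitin-handling proteins of the 19S particle, fell in 6 of 11 in SREBP2ΔM cells, 8 of 11 in LysM-Cre cells, 0 of 11 in IRF7-/- cells and 1 of 11 in WT cells. Their median log2 fold changes were -0.40, -0.48, -0.16 and -0.21. The SREBP2ΔM count was 3 without M-CSF replicate 1 and 1, Psmd3, without RANKL replicate 1. Psmd6 and Psmd13 were lost there both without RANKL replicate 1 (edgeR adjusted p = 0.0778 and 0.0714) and without M-CSF replicate 1 (0.0565 and 0.0518). Psmd14, the deubiquitinase that removes ubiquitin chains from the substrate, had 69.9 and 87.4 CPM with RANKL in LysM-Cre cells, against 131 and 142 CPM (log2 fold change -0.79 ± 0.14, edgeR adjusted p = 0.00140). It had 81.4 and 97.0 CPM, against 135 and 126 CPM, in SREBP2ΔM cells (-0.55 ± 0.14, edgeR adjusted p = 0.0102). The RANKL libraries were lower in both genotypes, and the SREBP2ΔM call was lost without RANKL replicate 1 (edgeR adjusted p = 0.0735) or M-CSF replicate 1 (0.0527). In IRF7-/- cells its levels overlapped, at 96.0 and 124 CPM, against 123 and 126 CPM. In WT cells it stood at 96.1 and 110 CPM with RANKL, against 125 and 118 CPM, and did not pass.

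Psmd3, a lid scaffold, had 90.02 and 103 CPM with RANKL, against 161 and 153 CPM, in SREBP2ΔM cells (log2 fold change -0.70 ± 0.14, edgeR adjusted p = 0.00286). In LysM-Cre cells it had 82.8 and 99.9 CPM, against 133 and 159 CPM (-0.68 ± 0.14, edgeR adjusted p = 0.00303). Psmd12, also of the lid, fell with -0.51 and -0.72 in these genotypes, the SREBP2ΔM call being lost without RANKL replicate 1 (edgeR adjusted p = 0.0618). Psmd1, the scaffold of the base, was the non-ATPase that fell in WT cells, with 162 and 173 CPM, against 236 and 222 CPM (-0.45 ± 0.13, edgeR adjusted p = 0.0238), and that call was lost without any 1 of RANKL replicate 1 (edgeR adjusted p = 0.110), RANKL replicate 2 (0.0540), M-CSF replicate 1 (0.113) and M-CSF replicate 2 (0.0576). Psmd1 in SREBP2ΔM cells (-0.40, edgeR adjusted p = 0.0164) did not pass without RANKL replicate 1 (0.0964) or M-CSF replicate 2 (0.106). Psmd8, a lid subunit with the highest fold change of this role, did not pass, with 423 and 245 CPM with RANKL in SREBP2ΔM cells, against 231 and 234 CPM. Its first RANKL library stood far above the second.

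In the core, fewer subunits passed. Among the 7 alpha subunits, which form the gate, 3 fell in SREBP2ΔM and 3 in LysM-Cre cells, in both cases Psma1, Psma4 and Psma5, and none fell in the IRF7 experiment. The SREBP2ΔM count was 1, Psma1, without RANKL replicate 1 and likewise without M-CSF replicate 1. In SREBP2ΔM cells the call of Psma4 was lost without RANKL replicate 1 (edgeR adjusted p = 0.0921) or M-CSF replicate 1 (0.0765). That of Psma5 was lost there without any 1 of the 4 libraries (edgeR adjusted p = 0.0506 to 0.124), with no filter on low counts (0.0557) and in a fit of the 2 groups (0.0508). In LysM-Cre cells that of Psma4 was lost without M-CSF replicate 2 (0.0507). Psma1 had 131 and 153 CPM with RANKL, against 213 and 194 CPM, in SREBP2ΔM cells (log2 fold change -0.51 ± 0.12, edgeR adjusted p = 0.00532). In LysM-Cre cells it had 125 and 135 CPM, against 200 and 210 CPM (-0.65 ± 0.12, edgeR adjusted p = 0.00137). The treatments did not overlap. Psma3 went the other way, with 188 and 204 CPM with RANKL, against 149 and 144 CPM, in IRF7-/- cells (0.42 ± 0.10, edgeR adjusted p = 0.0106), and 190 and 202 CPM, against 142 and 143 CPM, in WT cells (0.46 ± 0.10, edgeR adjusted p = 0.00758). All RANKL libraries were higher. The IRF7-/- call was lost without RANKL replicate 2 (edgeR adjusted p = 0.0541), M-CSF replicate 1 (0.0572) or M-CSF replicate 2 (0.0771). In the SREBP2 experiment Psma3 did not pass, at 190 and 193 CPM with RANKL, against 166 and 150 CPM, in SREBP2ΔM cells and 172 CPM in both RANKL libraries, against 145 and 159 CPM, in LysM-Cre cells.

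Of the 4 structural beta subunits only Psmb4 passed. It fell in SREBP2ΔM cells, with 101 and 111 CPM, against 182 and 146 CPM (log2 fold change -0.63 ± 0.14, edgeR adjusted p = 0.00528), and in LysM-Cre cells, with 99.5 and 109 CPM, against 140 and 167 CPM (-0.56 ± 0.14, edgeR adjusted p = 0.00858). The LysM-Cre call was lost without RANKL replicate 1 (edgeR adjusted p = 0.0576) or M-CSF replicate 2 (0.0686). Psmb1, Psmb2 and Psmb3 passed in no genotype.

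The assembly chaperones, which guide the building of the particle and do not stay in it, held the only member that rose in every genotype. Psmd10, also called gankyrin, escorts the ATPase Psmc4 during assembly of the base and is known as an oncoprotein. Its promoter on chromosome X is printed because this member changed most upward. The window held no ISRE, GAS or antioxidant letters.
Psmd10, chrX:140956662-140956961, minus strand, GRCm38.p6: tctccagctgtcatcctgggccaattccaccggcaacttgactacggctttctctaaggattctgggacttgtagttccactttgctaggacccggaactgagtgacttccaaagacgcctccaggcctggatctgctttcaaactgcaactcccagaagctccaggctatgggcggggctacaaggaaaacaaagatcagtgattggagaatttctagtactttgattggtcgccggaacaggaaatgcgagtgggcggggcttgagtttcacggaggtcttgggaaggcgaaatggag
Psmd10 (chromosome X, 140948429 to 140956728) had 77.3 and 86.8 CPM with RANKL, against 24.5 and 23.2 CPM, in SREBP2ΔM cells, and 74.8 and 92.9 CPM, against 26.5 and 26.4 CPM, in LysM-Cre cells. The IRF7-/- cells had 74.6 and 92.6 CPM with RANKL, against 26.4 and 26.7 CPM, and in WT cells 78.8 and 92.0 CPM, against 21.9 and 26.0 CPM. All RANKL libraries lay far above all M-CSF libraries. It was 3.44-fold higher in SREBP2ΔM cells (log2 fold change 1.78 ± 0.14, edgeR adjusted p = 1.53e-05), 3.17-fold in LysM-Cre cells (edgeR adjusted p = 1.89e-05), 3.15-fold in IRF7-/- cells (edgeR adjusted p = 9.78e-05) and 3.57-fold in WT cells (edgeR adjusted p = 6.63e-05).

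Psmg4, a chaperone of the alpha ring, fell in all 4 genotypes from low levels. It had 7.12 and 8.02 CPM with RANKL, against 14.1 and 11.3 CPM, in SREBP2ΔM cells, and 6.37 and 6.77 CPM, against 11.5 and 11.9 CPM, in LysM-Cre cells. IRF7-/- cells had 6.81 and 6.48 CPM, against 13.1 and 12.6 CPM, and in WT cells 8.33 and 8.44 CPM, against 12.8 and 11.8 CPM. The treatments were separate in each, with log2 fold changes of -0.74, -0.83, -0.95 and -0.55 (edgeR adjusted p = 0.0102, 0.00463, 0.00186 and 0.0217). The SREBP2ΔM call was lost without RANKL replicate 1 (edgeR adjusted p = 0.0618) or M-CSF replicate 1 (0.0631) and in DESeq2 (adjusted p = 0.0508), and the WT call without any 1 of the 4 WT libraries (edgeR adjusted p = 0.0547 to 0.109), in DESeq2 (adjusted p = 0.0980), with no filter on low counts (edgeR adjusted p = 0.0599) and in a fit of the 2 WT groups (edgeR adjusted p = 0.0584). Psmg2 and Psmd9, chaperones of the alpha ring and of the base, fell in both genotypes of the SREBP2 experiment and in neither of the IRF7 experiment. In SREBP2ΔM cells Psmg2 was lost without RANKL replicate 1 (edgeR adjusted p = 0.180) or M-CSF replicate 1 (0.148), in a fit of the 2 groups (0.0669) and in DESeq2 (adjusted p = 0.0979), and Psmd9 without M-CSF replicate 1 (edgeR adjusted p = 0.0507). In LysM-Cre cells Psmd9 was lost without any 1 of the 4 libraries (edgeR adjusted p = 0.0649 to 0.140), with no filter on low counts (0.0780), in edgeR's likelihood ratio test (0.0512) and in DESeq2 (adjusted p = 0.108).

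Psmc3ip, matched by name, had the largest fall of the 49 in the SREBP2 experiment. It had 1.88 and 2.17 CPM with RANKL, against 8.93 and 9.94 CPM, in LysM-Cre cells (log2 fold change -2.21 ± 0.31, edgeR adjusted p = 0.000332), and 2.23 and 4.34 CPM, against 8.33 and 9.31 CPM, in SREBP2ΔM cells (-1.42 ± 0.31, edgeR adjusted p = 0.00404). In IRF7-/- cells it had 4.14 and 6.14 CPM, against 9.35 and 7.93 CPM (-0.75 ± 0.25, edgeR adjusted p = 0.0404). That call was lost without RANKL replicate 1 (edgeR adjusted p = 0.186), M-CSF replicate 1 (0.195) or M-CSF replicate 2 (0.0755), in a fit of the 2 IRF7-/- groups (0.0825) and in DESeq2 (adjusted p = 0.0843). In WT cells it did not pass, at 4.74 and 5.83 CPM, against 7.47 and 7.79 CPM. Psmc3ip shares exon bases with Mlx on the other strand.

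Whether loss of SREBP2 altered these genes was asked within each treatment. No Psm gene passed in SREBP2ΔM osteoclasts against LysM-Cre osteoclasts by edgeR's quasi-likelihood or likelihood ratio test, DESeq2 or limma-voom, where 0.0372% of all genes passed edgeR's quasi-likelihood test. At an unadjusted p under 0.05 there was 1 member, Psmb9, against 3.62% of all genes. Psmb9 had 24.98 and 27.5 CPM in SREBP2ΔM osteoclasts, against 31.6 and 34.4 CPM in LysM-Cre osteoclasts, with both SREBP2ΔM libraries lower (log2 fold change -0.33 ± 0.13, edgeR adjusted p = 1.00). Psmb8 was next by p, with 58.8 and 75.6 CPM in SREBP2ΔM, against 73.6 and 96.6 CPM in LysM-Cre osteoclasts (-0.34 ± 0.16, edgeR adjusted p = 1.00), which overlapped. After it came Psmg2 with a log2 fold change of 0.34 ± 0.16 and Psmc3ip with 0.70 ± 0.34, neither of which passed.

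Among the 49 members 37 had a log2 fold change above 0 and 12 below it, with a median of 0.10 where that of all genes was 0.01. SREBP2ΔM libraries were both higher for 17 members and both lower for 3, against 14.2% and 15.4% of all genes. Members above 0 included Psmb5 (0.10), Psmb6 (0.19) and Psmb7 (0.12), and those below 0 included Psmb10 (-0.15), Psme1 (-0.11) and Psme2 (-0.06), with none of them past the unadjusted threshold. In macrophages, SREBP2ΔM against LysM-Cre, none passed by the same 4 tests (0.0557% of all genes by edgeR's quasi-likelihood test) and none had an unadjusted p under 0.05 (1.32% of all genes). The members nearest to it were Psme2b, Psma8, Psmb1 and Psmb6, with log2 fold changes of -0.72 ± 0.44, -0.47 ± 0.32, 0.14 ± 0.12 and 0.17 ± 0.15. Both SREBP2ΔM libraries were higher for 3 members and lower for 6, against 11.4% and 10.5% of all genes.

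In IRF7-/- osteoclasts none of the 48 members passed against WT osteoclasts by edgeR's quasi-likelihood or likelihood ratio test, DESeq2 or limma-voom, where 0.0185% of all genes passed edgeR's quasi-likelihood test. There were 4 members with an unadjusted p under 0.05, against 2.94% of all genes, and they were Psmb10, Psmb8, Psme1 and Psme2, all lower. Psmb10 had 36.1 and 43.6 CPM in IRF7-/- osteoclasts, against 50.5 and 56.9 CPM in WT osteoclasts (log2 fold change -0.43 ± 0.13, edgeR adjusted p = 1.00). Psmb8 had 54.6 and 69.0 CPM in IRF7-/-, against 80.0 and 107 CPM in WT osteoclasts (-0.60 ± 0.18, edgeR adjusted p = 1.00), the only member that also changed by more than 1.5-fold, as did 1.49% of all genes at that p. The genotypes did not overlap for either gene. Psme1 had 69.1 and 70.7 CPM in IRF7-/-, against 80.7 and 96.2 CPM in WT osteoclasts (-0.34 ± 0.12, edgeR adjusted p = 1.00). Psme2 had 128 and 147 CPM in IRF7-/-, against 155 and 197 CPM in WT osteoclasts (-0.36 ± 0.14, edgeR adjusted p = 1.00). Here, too, both IRF7-/- libraries were the lower ones.

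Psmb9 had 19.5 and 26.4 CPM in IRF7-/-, against 25.1 and 41.1 CPM in WT osteoclasts (-0.54 ± 0.24, edgeR adjusted p = 1.00), which overlapped. The constitutive subunits were closer, at -0.01 for Psmb5, -0.09 for Psmb6 and -0.03 for Psmb7, each with a standard error of 0.14. In all, 23 members were above 0 and 25 below, with a median of -0.01 beside 0.00 for all genes. IRF7-/- libraries were both higher for 1 member and both lower for 5, against 9.79% and 12.2% of all genes. The osteoclast marker sums were 59223 and 39941 CPM in IRF7-/- and 56174 and 31616 CPM in WT osteoclasts, and their part in these differences was not tested. In macrophages, IRF7-/- against WT, none passed (0.0185% of all genes by edgeR's quasi-likelihood test), none had an unadjusted p under 0.05 (1.31% of all genes), and the nearest were Psmb10, Psmd9, Psme1 and Psmd10, with log2 fold changes of -0.20 ± 0.12, -0.18 ± 0.14, -0.12 ± 0.12 and 0.15 ± 0.16. Both IRF7-/- libraries were higher for 5 members and lower for 5, against 13.3% and 14.2% of all genes.

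**Figure D4:**
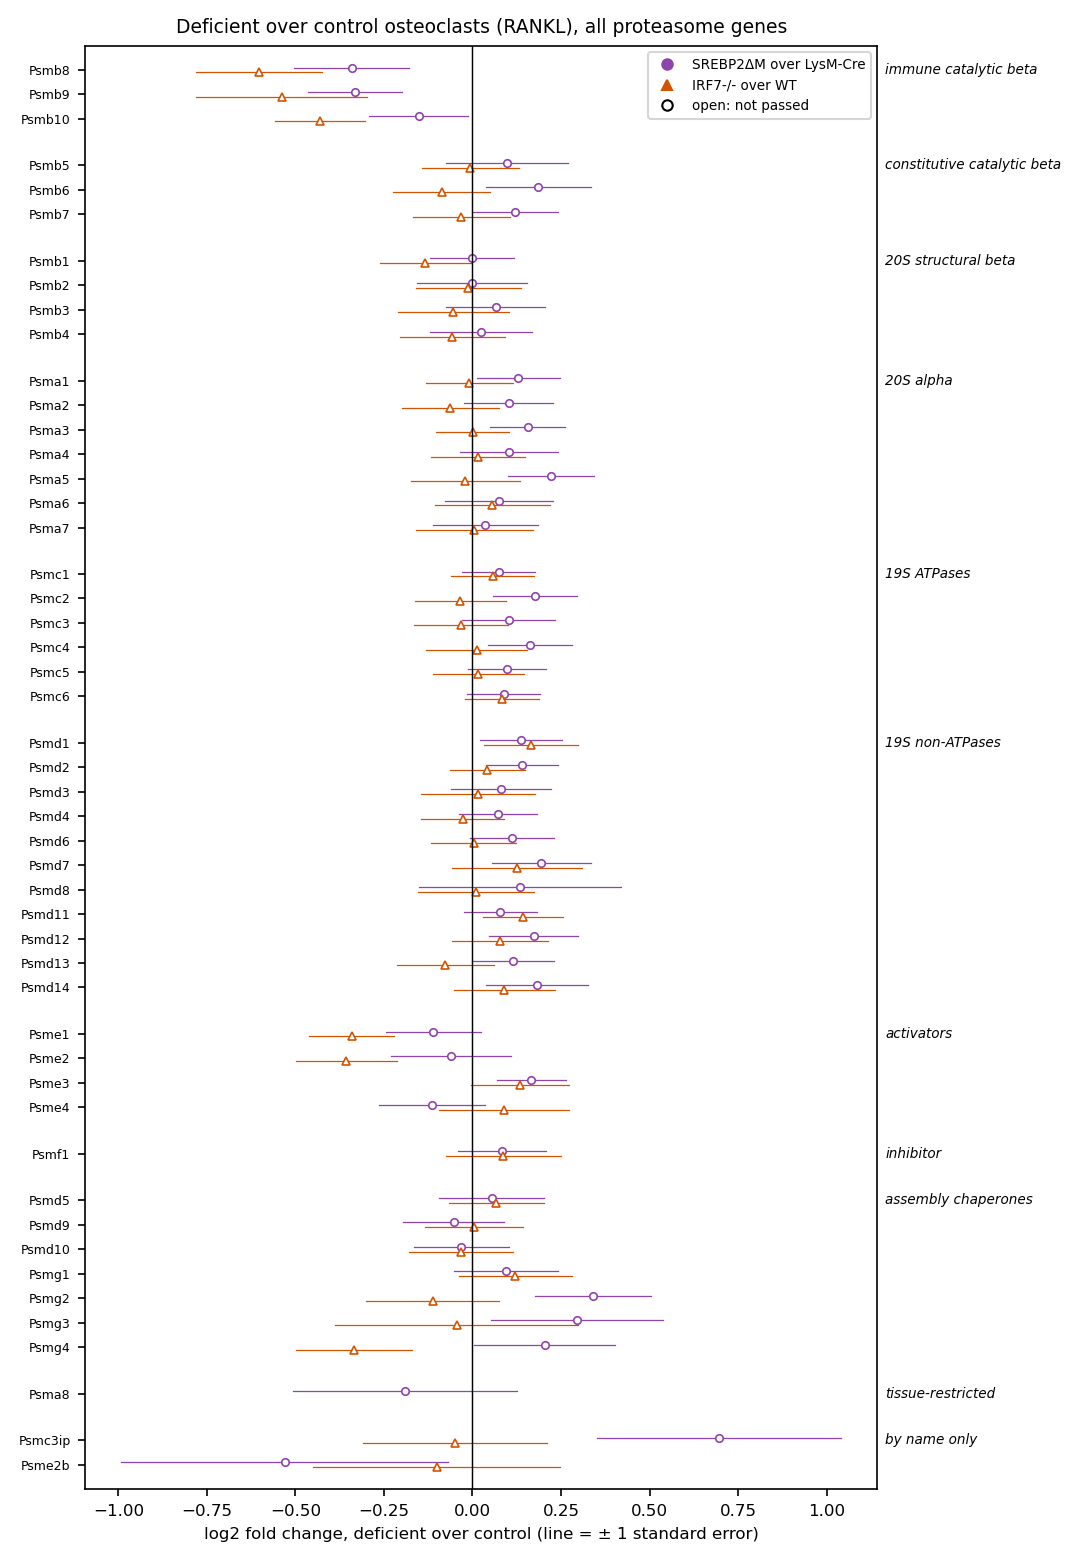
Log2 fold change of SREBP2ΔM over LysM-Cre osteoclasts (purple circles) and of IRF7-/- over WT osteoclasts (orange triangles) for each Psm gene, grouped by role, with lines of 1 standard error. All symbols are open because none passed the adjusted threshold, and the immune subunits lie at -0.15 to -0.60 while the other catalytic subunits lie at -0.09 to 0.19.

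The interaction of genotype with RANKL was tested as well. No member passed in either experiment by the 4 tests named above, and 0.0% of all genes passed edgeR's quasi-likelihood test. No member had an unadjusted edgeR p under 0.05, against 1.11% of all genes in the SREBP2 experiment and 1.12% in the IRF7 experiment. The members nearest to it in the SREBP2 experiment were Psmc3ip, Psmb8, Psmb9 and Psmd7, whose log2 change with RANKL in SREBP2ΔM minus that in LysM-Cre cells was 0.79, -0.38, -0.26 and 0.27. In the IRF7 experiment they were Psmb8, Psmg4, Psme2 and Psme1, at -0.49, -0.40, -0.31 and -0.22 for IRF7-/- minus WT cells. A larger fall of Psmb8 or Psmb10 with RANKL in the deficient cells was thus not shown.

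For the within-library ratios, the genotypes were compared by exact two-sided permutation within treatments, with 36 relabellings and a smallest p of 0.0556. The log2 ratio of Psmb8 over Psmb5 differed by -0.26 in SREBP2ΔM against LysM-Cre cells (exact p = 0.333) and by -0.31 in IRF7-/- against WT cells (exact p = 0.167). Psmb9 over Psmb6 differed by -0.37 with the loss of SREBP2 (exact p = 0.0556, adjusted 0.167 over 3 pairs) and by -0.25 with the loss of IRF7 (exact p = 0.444). Psmb10 over Psmb7 differed by -0.10 and by -0.30 (exact p = 0.333 and 0.0556, adjusted 0.333 and 0.167). None passed. Under RANKL alone the differences were -0.43, -0.51 and -0.27 for the 3 pairs in the SREBP2 experiment and -0.58, -0.42 and -0.40 in the IRF7 experiment. With M-CSF alone they were nearer 0, between -0.24 and 0.06.

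Other genes of the pathway were taken from 3 lists, set down with earlier results of these data known. Of 21 proteasome-associated genes such as assembly factors, ubiquitin receptors and shuttles, 19 were tested. With RANKL 1 rose and 3 fell in SREBP2ΔM, 1 rose and 2 fell in LysM-Cre, 2 rose and 3 fell in IRF7-/- and 2 rose and 1 fell in WT cells. Among all tested genes 28.6%, 29.0%, 25.8% and 24.9% rose and 27.6%, 28.6%, 23.5% and 22.5% fell in the same order, against which these counts of 19 are low. Zfand5, which speeds degradation by the proteasome, rose with log2 fold changes of 2.22, 2.10, 1.92 and 2.04 in the same order, the largest of this list. Uchl5, a deubiquitinase of the 19S particle, fell by 0.97, 1.04, 0.62 and 0.62 on the log2 scale.

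Of the 6 regulators of proteasome genes, all tested, 2 rose and 1 fell in SREBP2ΔM cells, 1 rose in LysM-Cre cells, and 1 rose and 1 fell in IRF7-/- and in WT cells, too few genes to set beside those shares. Ngly1, the deglycosylase that Nfe2l1 needs to become active, rose in all 4 genotypes with log2 fold changes of 1.86, 1.86, 1.74 and 1.65. Nfe2l1, which drives proteasome genes when degradation is blocked, rose in SREBP2ΔM cells (0.59), and Nfe2l2, which drives them under oxidative stress, fell by 0.35 in IRF7-/- and 0.40 in WT cells on the log2 scale.

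Of the 15 interferon-linked antigen processing genes, all tested, 3 rose and 5 fell in SREBP2ΔM, 5 rose and 3 fell in LysM-Cre, 1 rose and 10 fell in IRF7-/- and 1 rose and 5 fell in WT cells with RANKL. The shares of all genes given above apply to these counts as well, and the counts in both genotypes of the SREBP2 experiment lie near them. Tap2, a peptide transporter subunit that works downstream of the proteasome, rose in all 4 genotypes (log2 fold changes of 1.07, 1.22, 1.00 and 1.23), while Irf8 fell by 2.44, 2.01, 4.56 and 3.89 on the log2 scale. Erap1, the peptidase that trims peptides for MHC class I, fell by 1.30, 1.28, 1.52 and 1.27.

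Between genotypes none of the 3 lists had a gene that passed edgeR's quasi-likelihood test except Irf7 itself in IRF7-/- cells. All 15 interferon-linked genes had log2 fold changes below 0 in osteoclasts, in SREBP2ΔM against LysM-Cre (median -0.25, 5 at an unadjusted p under 0.05) and in IRF7-/- against WT (median -0.44, 10 at an unadjusted p under 0.05, Irf7 included). Of all genes, 5098 of 10764 and 5239 of 10788 were below 0 there. In macrophages most of the 15 were below 0 as well, 12 with the loss of SREBP2 (median -0.09) and 13 with that of IRF7 (median -0.20). The other proteasome genes had medians of 0.07 and -0.02 in the osteoclast comparisons, with none at an unadjusted p under 0.05.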

How the data were processed

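RNA-seq libraries of BMMs, 16 in 2 experiments, were taken as whole read counts per gene, which the authors deposited without normalization. The submitters' processing notes name bcl2fastq 1.8.4 for base calls, fastp for trimming, STAR 2.7.3a for alignment and the mm10 genome. The kit (Illumina TruSeq Stranded mRNA) marks strand, but the sources used here give neither the counter nor its strand option and gene models. Reads of the 15 Psm genes whose exons overlap those of another gene could therefore be assigned in more than 1 way. The deposited log2 values are log2 CPM of the kept genes and served to check the unit. A gene was kept by the authors where its fitted level reached 3 CPM in any group, which was checked on the files.

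For each experiment 4 groups of 2 libraries were fitted by edgeR 4.0.16 under R 4.3.3, using TMM and robust quasi-likelihood dispersions, which leaves 4 residual degrees of freedom. P-values were adjusted over 10764 or 10788 genes (Benjamini-Hochberg), with calls at 0.05. The 2 experiments are separate tables, so levels set across them rest on separate scalings. Totals of 7703178 to 13387849 counts and a common coefficient of biological variation of 0.150 and 0.152 set the precision. Exon lengths came from GENCODE M21 and promoters from RefSeq (GRCm38.p6), with 41 of 49 members matched. Ratios were tested by exact permutation with scipy 1.17.1 in Python 3.11.15. Plots were made in matplotlib 3.10.9.

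The members, lists and marker genes were chosen with earlier results of these data known. Psmb5 to Psmb10, Psme1 and Psme2 were named throughout. Of the members that passed a comparison, up to 6 per direction by the smallest p were named, taken from each role in turn. Where none passed, the 4 smallest p were named. The member with the highest or lowest level or fold change in a role could also be named, and up to 4 genes of each other list. Members named beyond this, in the counts of members that passed or of those that hold a motif and for their lost calls, were chosen after their values were seen. Alternatives were DESeq2 1.42.0 (size factors, Wald test), edgeR's likelihood ratio test, limma-voom (limma 3.58.1), other filters, only the groups compared, a replicate block, the thresholds of the study and leaving out each library. The edgeR fit and the exact permutation test were first tested on simulated data whose changes were known.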

Additional observations from a re-analysis of the deposited data

Results flagged for a closer look

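In 4 members, both libraries of a group lay beyond those of its control in one experiment and on the opposite side in the other experiment, under the same kind of contrast. These differences between experiments were not tested, and the share of all genes with such opposite sides was not counted. Groups lay apart in a given direction for 9.79% to 15.4% of all genes between genotypes, and for 37.4% to 40.7% with RANKL. Psmd2 had a log2 fold change with RANKL of -0.045 in LysM-Cre cells (368 and 371 CPM with RANKL, against 383 and 380 CPM) and of 0.10 in IRF7-/- cells (453 and 428 CPM, against 417 and 404 CPM). The other genotypes did not follow this split, with 0.14 in SREBP2ΔM cells (411 and 403 CPM, against 353 and 386 CPM) and 0.08 in WT cells, where the treatments overlapped. Psmg4 had one of 0.20 in SREBP2ΔM against LysM-Cre osteoclasts and of -0.34 in IRF7-/- against WT osteoclasts. Psmd10 in macrophages had -0.15 for SREBP2ΔM against LysM-Cre and 0.15 for IRF7-/- against WT. Psmd12 in macrophages had -0.040 and 0.048 in the same comparisons. None of these 8 contrasts passed edgeR's adjusted threshold.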

How the results depend on the processing

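With 2 libraries a group, single calls near the threshold were unstable. At the thresholds of the study (unadjusted p under 0.05, fold over 1.5) the members called with RANKL were 11 in SREBP2ΔM, 13 in LysM-Cre, 5 in IRF7-/- and 4 in WT cells, and 1 (Psmb8) in IRF7-/- against WT osteoclasts. Within single experiments the RANKL difference in Psmb8 over Psmb5 was -0.69 and -0.89 and in Psmb10 over Psmb7 -0.38 and -0.89 (SREBP2 and IRF7), where no p can pass. Leaving out each library in turn gave 13 to 26 called members with RANKL in SREBP2ΔM, 20 to 25 in LysM-Cre, 4 to 11 in IRF7-/- and 6 to 8 in WT cells, and 0 to 0 in every genotype comparison and interaction. RANKL ratios ran from -0.86 to -0.72 for Psmb8 over Psmb5, from -0.66 to -0.61 for Psmb10 over Psmb7 and from -0.19 to 0.06 for Psmb9 over Psmb6. Outside these, 1154 of 1173 single-gene results under other settings kept their direction and side of the threshold, or were uncalled in both, 18 lost a call and 1 gained one. None reversed a call. Apart from the settings named, causes were not tested.

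The replicate numbers are not said to mark a shared mouse or day, and same-numbered libraries deviated together with correlations of 0.04 to 0.75, highest between the RANKL groups of each experiment (0.70 and 0.75). The values under 0.1 all lay between a RANKL and an M-CSF group. The numbers were not taken as pairs, and overlap was judged over all libraries. By number, Psmb8 was lower in SREBP2ΔM than in LysM-Cre osteoclasts in both (58.8 against 73.6 and 75.6 against 96.6 CPM). Psmb9 was likewise lower in IRF7-/- than in WT osteoclasts (19.5 against 25.1 and 26.4 against 41.1 CPM). With the replicate block, 25 members passed with RANKL in SREBP2ΔM, 27 in LysM-Cre, 15 in IRF7-/- and 14 in WT cells, and 0 between genotypes or in the interactions. Psme2 passed with RANKL in WT cells under the block (log2 fold change 0.31, edgeR adjusted p = 0.0395).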

Other observations

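The PA28 subunits and the immune subunits of the same pathway can be set against each other within each library. These ratios were chosen after the values had been seen and are given with no test. The log2 ratio of Psme1 to Psme2 read counts was -1.05 to -0.76 in the 8 RANKL libraries and -0.18 to -0.05 in the 8 M-CSF libraries, in all 4 genotypes. The log2 ratio of Psmb8 to Psmb9 was 1.22 to 1.67 in the RANKL libraries and 2.11 to 2.56 in the M-CSF libraries. Both sets of libraries were separate for both ratios.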
